A study of Danio rerio with 21 samples.

Results

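The fast skeletal muscle genes mylpfa (ENSDARG00000053254), pvalb1 (ENSDARG00000037789) and pvalb7 (ENSDARG00000034705) were followed in RNA from pulled-down nuclei of adult zebrafish hearts. They are 3 of the 31952 genes counted in 21 libraries. They were taken from a list of genes reported as higher at 1 day post injury (dpi) after cryoinjury, because their counts were high in single cryoinjury libraries. Those levels therefore chose the genes, and their values in the cryoinjury libraries are given as a description, without a test.

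All fish, sham-operated fish included, carried both transgenes of the line ox133. In TgBAC(mpeg1:BirA-Citrine), the promoter of mpeg1 on a bacterial artificial chromosome drives the biotin ligase BirA. In the other, bactin:Avi-Cerulean-Rangap, a ubiquitous promoter drives a nuclear envelope protein that carries the Avi tag, so that nuclei of mpeg1-expressing cells, mainly macrophages, are biotinylated and caught on streptavidin beads. The fish were adults of 4 to 12 months. Each library came from 1 operated heart, so the replicates of a group were separate animals. In cryoinjury a probe frozen in liquid nitrogen was laid on the exposed ventricle, in resection the tip of the ventricle was cut off, and in sham surgery the ventricle was exposed and left uninjured. The groups were cryoinjury (n = 2), resection (n = 3) and sham (n = 3) at 1 dpi, cryoinjury (n = 2), resection (n = 2) and sham (n = 2) at 5 dpi, and cryoinjury (n = 3) and sham (n = 4) at 14 dpi. At 14 dpi all 3 cryoinjury libraries and 1 sham library belonged to the second of 2 labelled rounds, and 3 sham libraries to the first.

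Skeletal muscle fibres contract fast or slowly according to which forms of the contractile and calcium-handling proteins they contain. Mylpfa encodes the regulatory myosin light chain of fast fibres. Parvalbumins, of which pvalb1 and pvalb7 encode 2 forms, are soluble calcium-binding proteins that take up calcium after a contraction and so speed relaxation, and they are abundant in the fast trunk muscle of fish. The zebrafish heart contracts with cardiac forms of these proteins, and macrophages are not known for either set.

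The libraries held between 10577395 and 61141100 counts. The label of the pulled-down cells was checked with a list of 25 macrophage genes, whose summed level ran between 110 and 1683 CPM (the count scaled by the total count of its library) over the 21 libraries. MPEG1 (ENSDARG00000055290), a gene of the macrophage pore-forming protein, was detected in all libraries except cryoinjury 5 dpi replicate 1. A list of cardiomyocyte genes summed to between 55054 and 145961 CPM in every library, so RNA of heart muscle was present throughout. Correlations of log2(CPM + 1) between replicates of a group lay between 0.78 and 0.95, and 2 libraries stood apart for the muscle genes described here, cryoinjury 1 dpi replicate 2 and cryoinjury 5 dpi replicate 1.

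Mylpfa was high in 1 library of each early cryoinjury group. At 1 dpi it had 4322 and 14.8 CPM in the cryoinjury libraries (121873 and 687 counts), 268, 4.48 and 2.17 CPM in the resection libraries, and 0, 0.0327 and 6.42 CPM in the sham libraries. At 5 dpi it had 2471 and 0.106 CPM in the cryoinjury libraries (32163 and 2 counts), 4.02 and 0 CPM after resection, and 1.27 and 0.0927 CPM in sham. At 14 dpi it had 0.314, 0.0311 and 3.23 CPM in the cryoinjury libraries, against 0.0216, 0.852, 0.279 and 5.02 CPM in the sham libraries. One library therefore carried nearly all of each early cryoinjury mean. At 1 dpi the other replicate (14.8 CPM) lay above every sham library, above resection replicates 3 and 4, and below resection replicate 2. At 5 dpi the other replicate (0.106 CPM) was in the range of the resection and sham libraries. The mean of 2168 ± 3046 CPM at 1 dpi (SD, n = 2) and that of 1236 ± 1747 CPM at 5 dpi (SD, n = 2) each had an SD larger than the mean. In bulk RNA, a different number of muscle nuclei and a different amount of muscle RNA per nucleus cannot be told apart. Whether the muscle RNA came from nuclei was not tested.

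Pvalb1 was highest in the 5 dpi library instead. It had 189 and 11.9 CPM in the cryoinjury libraries at 1 dpi, 82.6, 2.30 and 2.41 CPM after resection, and 0 counts in all 3 sham libraries. By counting error alone, a count of 0 in a library allows a level of up to 3 counts of its total. At 5 dpi pvalb1 had 2453 and 0 CPM in the cryoinjury libraries (31919 and 0 counts), 0.326 and 0 CPM after resection, and 0.0506 and 2.60 CPM in sham. The 14 dpi levels were 0.105, 0.124 and 2.86 CPM in the cryoinjury libraries and 0.0866, 0.128, 0.0698 and 6.90 CPM in sham. The single library of cryoinjury 5 dpi replicate 1 held 89.0% of the summed CPM of pvalb1 over all 21 libraries.

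Pvalb7 was confined more narrowly. It had 3667 and 0.129 CPM in the cryoinjury libraries at 1 dpi (103419 and 6 counts), 21, 0 and 0 counts in the resection libraries, and 0 counts in each sham library. At 5 dpi both cryoinjury libraries held it, at 46.8 and 9.87 CPM, against 0.0362 and 0 CPM after resection and 0 counts in both sham libraries. At 14 dpi it reached at most 0.0349 CPM in a cryoinjury library (1 count) and 0.108 CPM in a sham library (5 counts). Cryoinjury 1 dpi replicate 2 held 98.4% of its summed CPM, and 13 of 21 libraries had no count of it, against 5 libraries for pvalb1 and 2 for mylpfa.

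**Figure D1:**
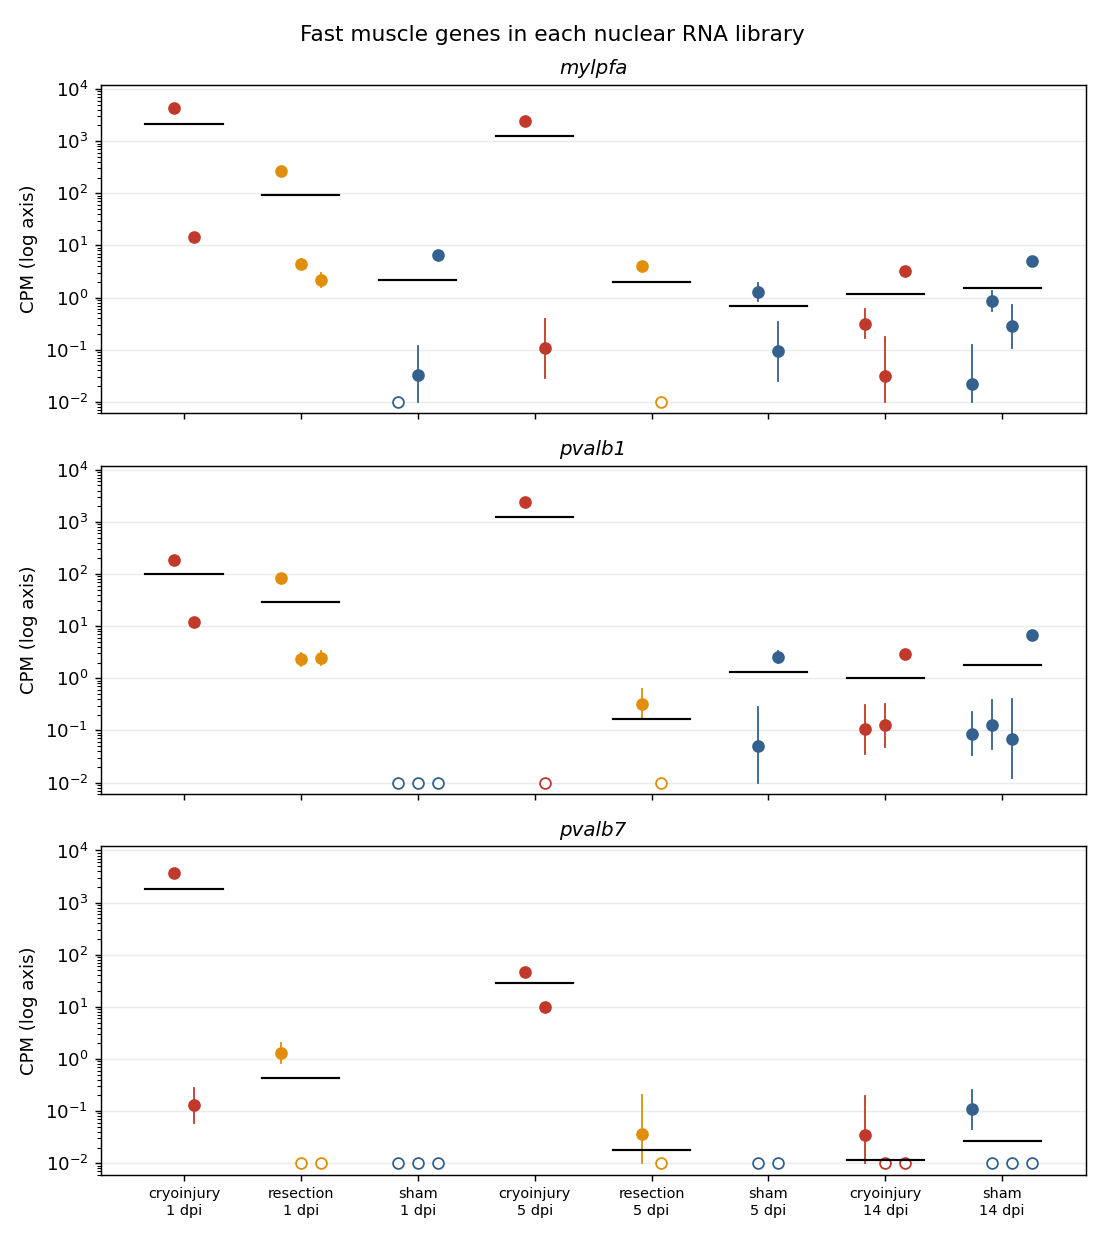
Level of mylpfa, pvalb1 and pvalb7 in each of the 21 libraries, in CPM on a log axis, with groups in order of day along the x axis (red, cryoinjury; orange, resection; blue, sham). Filled points are libraries, vertical lines their 95% Wilson intervals, horizontal bars group means, and open circles at the foot libraries with 0 counts; in each early cryoinjury group 1 point of mylpfa lies far above the other, at 4322 against 14.8 CPM and at 2471 against 0.106 CPM.

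Ordered by group mean, mylpfa ran from cryoinjury 1 dpi through cryoinjury 5 dpi (1236 CPM) and resection 1 dpi (91.6 ± 153 CPM, SD, n = 3) to 5 groups whose means lay between 0.679 and 2.15 CPM. Pvalb1 was led by cryoinjury 5 dpi (1226 ± 1734 CPM, SD, n = 2), then cryoinjury 1 dpi (101 ± 125 CPM, SD, n = 2) and resection 1 dpi (29.1 ± 46.4 CPM, SD, n = 3). For pvalb7 the order was cryoinjury 1 dpi (1834 ± 2593 CPM, SD, n = 2), cryoinjury 5 dpi (28.3 ± 26.1 CPM, SD, n = 2) and resection 1 dpi (0.432 ± 0.748 CPM, SD, n = 3). Neighbouring groups in these orders overlapped in range for all 3 genes, except cryoinjury 5 dpi and resection 1 dpi for pvalb7. The order of group means is thus mostly an order of single libraries.

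The 2 cryoinjury hearts of a day differed widely from each other. Mylpfa differed 293-fold and pvalb7 28458-fold between the cryoinjury replicates of 1 dpi, while pvalb1 differed 15.9-fold. Between the cryoinjury replicates of 5 dpi mylpfa was at least 15610-fold and pvalb1 at least 15491-fold higher in replicate 1, taking 3 counts in replicate 4 as the floor, and pvalb7 differed 4.74-fold. Resection 1 dpi replicate 2 stood above its 2 replicates in the same way but at a lower level, by 123-fold for mylpfa and 36.0-fold for pvalb1 over the lowest of them. Together the 3 genes took 0.818% of all counts in cryoinjury 1 dpi replicate 2, 0.497% in cryoinjury 5 dpi replicate 1 and 0.0352% in resection 1 dpi replicate 2.

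The 3 genes did not keep 1 ratio to each other in the libraries that held them. For each count of mylpfa there were 0.0438 counts of pvalb1 in cryoinjury 1 dpi replicate 2, but 0.992 in cryoinjury 5 dpi replicate 1, 0.808 in cryoinjury 1 dpi replicate 3 and 0.308 in resection 1 dpi replicate 2. Pvalb7 ran the other way, with 0.849 counts per mylpfa count in cryoinjury 1 dpi replicate 2, 0.0189 in cryoinjury 5 dpi replicate 1 and 0.00483 in resection 1 dpi replicate 2. Over the 21 libraries, which share the depth and makeup of each library between genes, log2(CPM + 1) of mylpfa and pvalb1 had a Pearson r of 0.94 and a Spearman rho of 0.73. Without the 2 highest libraries the values were 0.87 and 0.64 (n = 19). For mylpfa and pvalb7 r was 0.79 over all libraries and 0.11 without those 2, so that their likeness rested on 2 hearts. In the order of genes along the reference annotation (RefSeq GRCz12tu, used for names and neighbours only), pvalb1 lay between pvalb4 and pvalb5 on chromosome 3, which also carries mylpfa. Pvalb7 lay on chromosome 22, apart from the other parvalbumins looked up, which did not include pvalb6.

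Shares within the parvalbumin family differed between libraries too. The family here is pvalb1 to pvalb5 and pvalb7 to pvalb9, since pvalb6 was listed but matched no identifier. Shares add up to the whole of these genes, so a high share of 1 form lowers the others. In cryoinjury 1 dpi replicate 2, pvalb7 supplied 61.2% of these parvalbumin counts (95% Wilson interval 60.9% to 61.4%, counting error only, since reads without molecular identifiers are not independent molecules) and pvalb1 3.16%. In cryoinjury 5 dpi replicate 1 pvalb7 supplied 0.747% and pvalb1 39.1%, and in resection 1 dpi replicate 2 they supplied 0.339% and 21.6%. Pvalb4 kept about the same share in these 3 libraries, 24.6%, 22.9% and 24.9%. The shares of pvalb3 were 10.8%, 24.5% and 39.9%, and those of pvalb2 0.168%, 12.6% and 13.0%. Cryoinjury 1 dpi replicate 3 differed from the other heart of its day. Of its 1167 parvalbumin counts pvalb1 supplied 47.6%, pvalb2 40.5%, pvalb4 10.5%, pvalb3 0.857% and pvalb7 0.514%. In sham 1 dpi replicate 2 pvalb4 supplied 15.8%, so its share was not constant over libraries. These shares are of counts that are not corrected for gene length, and are compared for the same gene between libraries. Parvalbumins are similar in sequence, so reads could be split between them in counting, and single shares are uncertain to that extent.

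In CPM, pvalb4 was at 1476 in cryoinjury 1 dpi replicate 2, 1436 in cryoinjury 5 dpi replicate 1 and 95.2 in resection 1 dpi replicate 2, while pvalb2 was at 10.1, 791 and 49.5 CPM. Pvalb3 had 651, 1538 and 152 CPM in the same 3 libraries. Sham libraries were not free of parvalbumins. Sham 1 dpi replicate 2 held 1780 parvalbumin counts, of which 54.9% were pvalb3, 29.3% pvalb2 and 15.8% pvalb4, with none of pvalb1 or pvalb7. Pvalb5, pvalb8 and pvalb9 stayed at or under 0.108, 2.17 and 3.55 CPM in every library.

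Contractile protein families also differed in makeup between the 2 high cryoinjury libraries. The genes named in the next sentences were chosen after their values were seen. Among the fast myosin heavy chains, the motor proteins of the thick filament, myhb supplied 61.5% of counts in cryoinjury 1 dpi replicate 2 and none of 45321 counts in cryoinjury 5 dpi replicate 1, where myhc4 supplied 94.8% (32.2% in the first library). Resection 1 dpi replicate 2 resembled the 5 dpi library, with 94.5% myhc4 and 3.72% myhb. Among the fast forms of troponin I, the inhibitory subunit of the thin-filament calcium switch, tnni2a.1 supplied 22.4%, 0% and 0% in the 3 libraries, and tnni2a.3 supplied 10.2%, 49.1% and 51.4%.

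**Figure D2:**
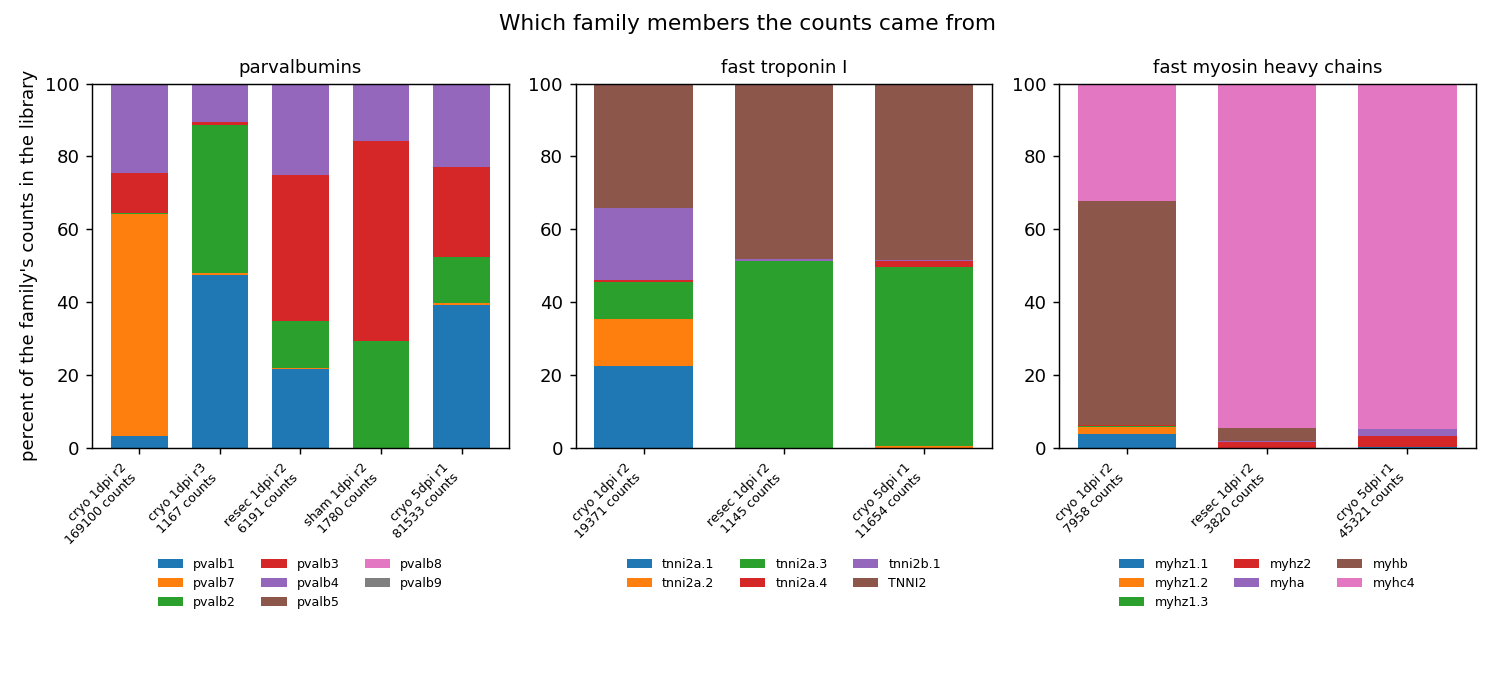
Makeup of the parvalbumin, fast myosin heavy chain and fast troponin I families in the libraries with at least 1000 counts of the family, as a percentage of the counts of the family (y axis). Cryoinjury 1 dpi replicate 2 is led by pvalb7 (61.2%) and myhb (61.5%), whereas cryoinjury 5 dpi replicate 1 has 0.747% pvalb7 and no myhb, with 94.8% myhc4.

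Lists of the proteins that these genes work with were examined: thin filament, thick filament and Z-disc, calcium handling, and energy enzymes of muscle. They hold 69 gene identifiers, of which 62 had at least 100 counts in some library and were compared. A gene was counted as past the fold in a library when its CPM was over 10 times the larger of 1 CPM and its median in the other 20 libraries. In cryoinjury 1 dpi replicate 2, 26 of the 62 genes (41.9%) were past the fold, against 3.53% of all 17047 genes compared. In cryoinjury 5 dpi replicate 1 there were 24 (38.7%, against 3.8% of all genes), and in resection 1 dpi replicate 2 there were 15 (24.2%, against 3.1%). Cryoinjury 1 dpi replicate 3 had 3 and cryoinjury 5 dpi replicate 4 had 1, and every other library had between 0 and 2. These counts are descriptions, since the genes studied were picked for their level in these same libraries.

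The contractile lists carried most of the pattern. In the order cryoinjury 1 dpi replicate 2, cryoinjury 5 dpi replicate 1 and resection 1 dpi replicate 2, the thin filament list had 11, 9 and 7 of 16 genes past the fold. The thick filament and Z-disc list had 9, 7 and 3 of 17, the calcium handling list 5, 6 and 4 of 15, and the energy enzymes 1, 2 and 1 of 14. Of the last list, GAPDH, the glycolytic dehydrogenase that all cells use, and ckma, a muscle creatine kinase, had at least 12125 and 2261 CPM in every library. ACTA1 (ENSDARG00000055618), an alpha actin, and RYR1, a calcium release channel, were likewise at 1204 and 33.1 CPM or more throughout. Names in capitals are those of a human-style family symbol in the reference table, and such genes may differ from the single gene that symbol has in other species.

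The 2 high cryoinjury libraries shared 17 of these genes, 9 were past the fold only in cryoinjury 1 dpi replicate 2, and 7 only in cryoinjury 5 dpi replicate 1. All 15 genes of resection 1 dpi replicate 2 were among those of a cryoinjury library. Actc1b, an alpha actin of larval and fast muscle, reached 5845 CPM in cryoinjury 1 dpi replicate 2, 4668 CPM in cryoinjury 5 dpi replicate 1 and 534 CPM in resection 1 dpi replicate 2, and was at most 31.9 CPM elsewhere. Tnnt3b, the fast troponin T that ties the calcium switch to tropomyosin, had 1220, 1366 and 67.5 CPM in the 3 libraries. Of the 33 genes past the fold in either cryoinjury library, 9 had levels within 2 times of each other in both, 7 were over 10 times higher in the 1 dpi library and 8 over 10 times higher in the 5 dpi library. Over all genes the overlap was small: 53 genes were past the fold in both, which is 8.80% of the 602 of cryoinjury 1 dpi replicate 2 and 8.19% of the 647 of cryoinjury 5 dpi replicate 1.

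Examples on either side were chosen after their values were seen. Higher in the 1 dpi library were mybpc2a, a fast myosin-binding protein C (64.1 CPM in cryoinjury 1 dpi replicate 2, 0 in cryoinjury 5 dpi replicate 1), and ryr1a, the calcium release channel of the sarcoplasmic reticulum (17.7 and 0 CPM). Higher in the 5 dpi library were mybpc2b (14.4 and 112 CPM), the tropomyosin tpma (2.55 and 290 CPM) and the myosin heavy chain myha (0.0355 and 67.8 CPM). Several of these pairs are close paralogs, for which the split of reads is uncertain.

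**Figure D3:**
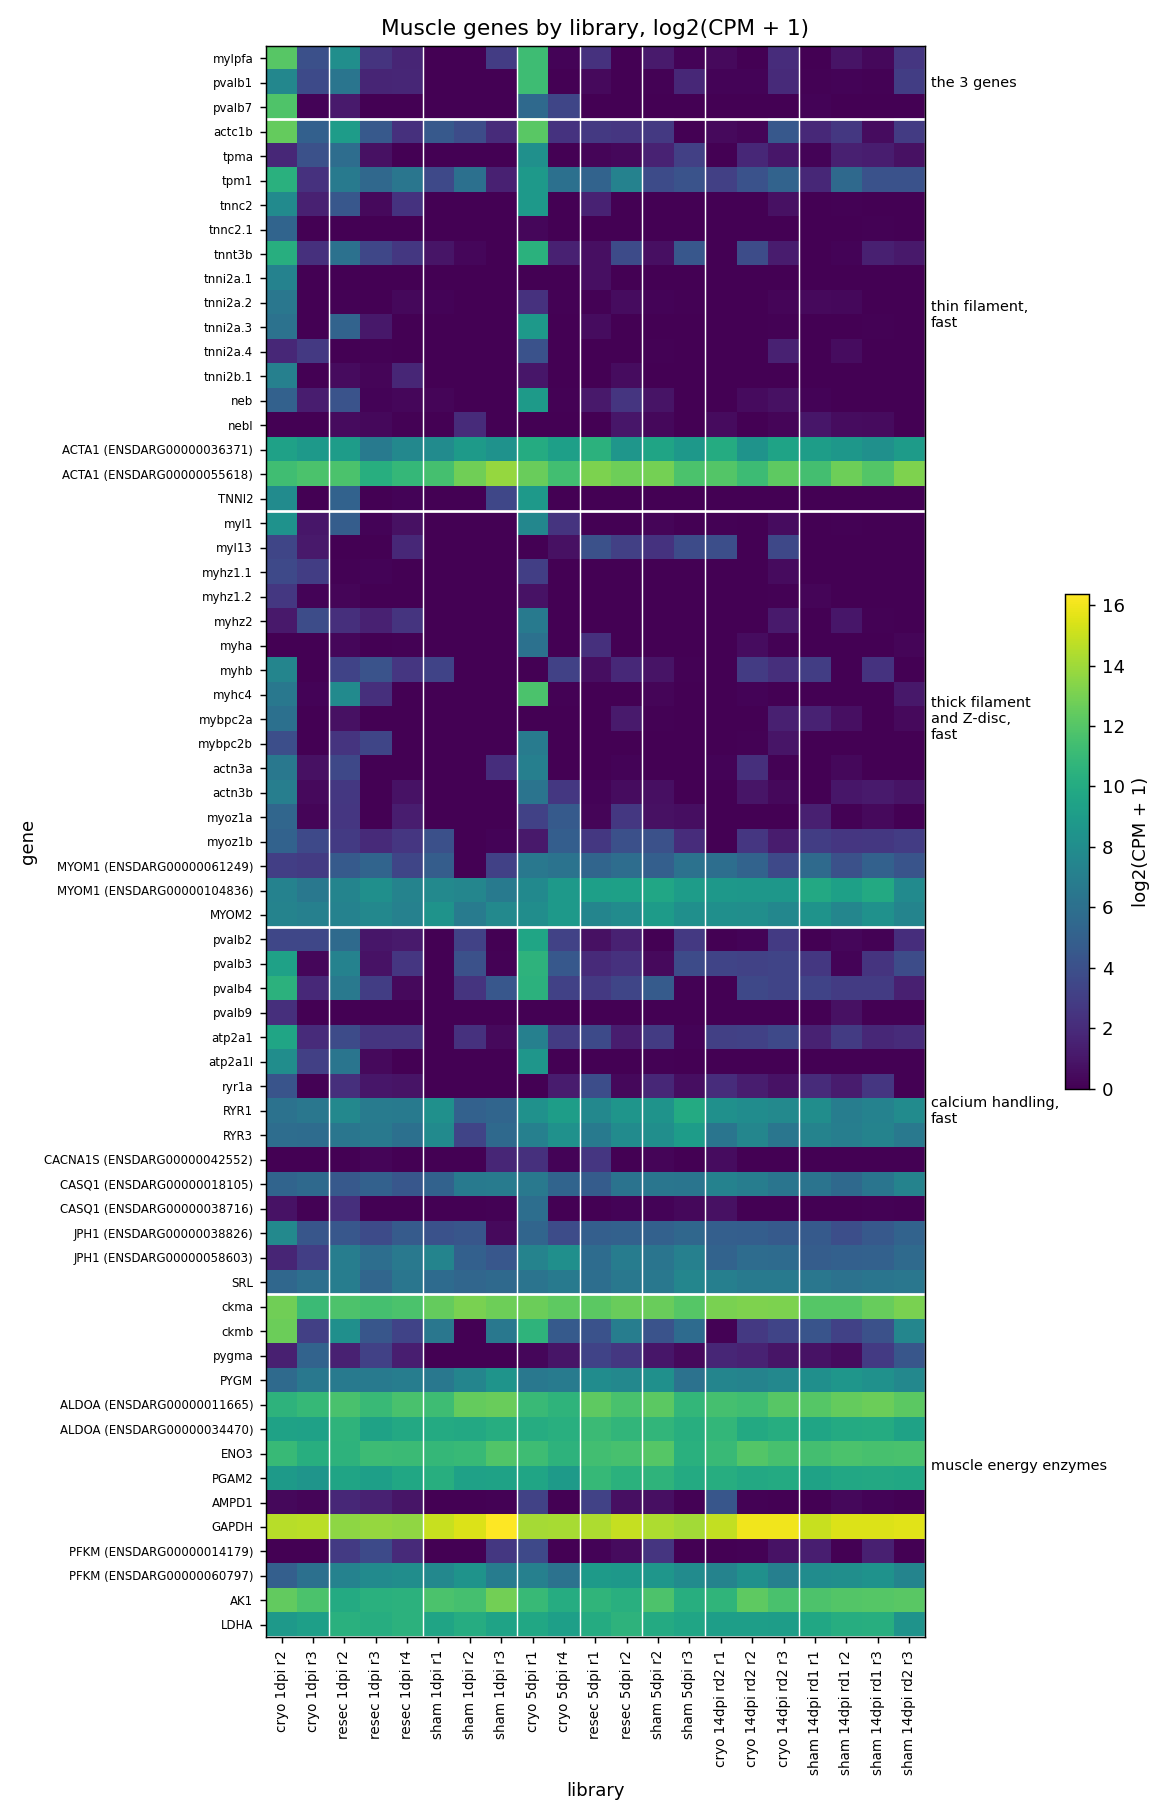
Map of log2(CPM + 1) of the listed muscle genes (lines, grouped by list) in the 21 libraries (columns, in order of day). The columns of cryoinjury 1 dpi replicate 2 and cryoinjury 5 dpi replicate 1 are bright over 26 and 24 of 62 genes compared, resection 1 dpi replicate 2 is fainter with 15, and genes such as GAPDH and ckma are bright in every column.

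The genes whose pattern was most like that of the 3 genes were ranked by Pearson r of log2(CPM + 1) with the mean of the 3, over 21 libraries, among 17044 other genes with at least 100 counts in some library. The first 10 named genes were myl1 (r = 0.97), tnnc2 (0.96), atp2a1l (0.96), mafaa (0.95), tnni2a.3 (0.94), TNNI2 (0.93), actn3b (0.93), actc1b (0.92), actn3a (0.92) and MYL1 (ENSDARG00000017441, 0.91), while the median r over all genes was -0.04. All but mafaa and MYL1 belong to the fast muscle lists: a myosin light chain, troponin C, a sarcoplasmic calcium pump, troponin I, alpha-actinins and actin. Mafaa, a transcription factor gene of the large Maf family, was in no list, and had 29.4 CPM in cryoinjury 1 dpi replicate 2, 16.3 CPM in cryoinjury 5 dpi replicate 1, 5.98 CPM in resection 1 dpi replicate 2 and at most 2.58 CPM in any other library. Resection 1 dpi replicate 2 had the next highest level after those 2 libraries for 9 of the 10 genes. Of the 100 most alike genes 26 were in the muscle lists, which hold 0.364% of the genes compared. The libraries share depth and makeup over genes, and the ranking is a description.

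The resection libraries were not used to choose the genes, but the sham libraries of 1 dpi served the list they came from, so the comparison of the 3 genes at 1 dpi is given as a description, without a test. Pvalb1 had 82.6, 2.30 and 2.41 CPM in the resection libraries and 0 counts in each of the 3 sham libraries, and the groups did not overlap. The lowest resection library was 21.7-fold above the highest of the sham floors of 3 counts per library. The resection mean of 29.1 CPM was 370-fold above the mean of those floors, but it was carried by replicate 2 and was 2.35 CPM without it. The floors cover counting error only, so these folds are no bounds. At 1 dpi the sham libraries also detected fewer genes (13826, 14075 and 12608) than the resection libraries (21742, 20122 and 20743). The part of that difference in the counts of 0 was not tested. Pvalb1 passed the filter on low counts only through the resection libraries, and its fitted log2 difference of 12.13, which rests on counts of 0 and is no bound, was 8.55 without replicate 2.

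Mylpfa overlapped between resection and sham at 1 dpi (268, 4.48 and 2.17 CPM in the resection libraries, 0, 0.0327 and 6.42 CPM in the sham libraries). Its fitted log2 difference of 3.74 (SE 2.52) turned to -1.03 without resection replicate 2 and to 11.09 without sham replicate 3. Pvalb7 was too low to be fitted, having 21 counts in resection replicate 2 and none in the other 5 libraries.

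At 5 dpi, where the sham libraries had no part in the list, mylpfa alone had counts enough to be tested. It had 4.02 and 0 CPM in the resection libraries and 1.27 and 0.0927 CPM in the sham libraries, a log2 difference of 1.61 (SE 2.80, adjusted p = 1.00 in edgeR) that was -6.50 without resection replicate 1. In this comparison 0% of genes were called by edgeR (0 of 15423, with 503 at an unadjusted p under 0.05), and DESeq2 called 153. The fitted log2 effect of resection at 1 dpi exceeded that at 5 dpi by 14.90 for pvalb1 (SE 4.19) and by 1.73 for mylpfa (SE 3.31). These values include the sham libraries of 1 dpi and counts of 0 and are likewise a description, and edgeR called 0% of 19166 genes for this difference (2675 at an unadjusted p under 0.05), while DESeq2 called 1367.

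Of the listed muscle genes, 10 of 37 tested were called between resection and sham at 1 dpi, 4 as higher and 6 as lower (edgeR, Benjamini-Hochberg adjustment). Of all 15764 genes 13.7% were called, 11.3% as higher and 2.37% as lower. The share of muscle genes called as higher was thus about that of all genes, and only the share called as lower exceeded it. The sham libraries here are those behind the choice of mylpfa, pvalb1 and pvalb7. The genes called as higher had low levels. Pvalb8, the neighbour of pvalb4 in the parvalbumin cluster, had 0.678, 1.29 and 2.17 CPM in the resection libraries and no count in the sham libraries. Myhz2, a fast myosin heavy chain, had 3.70, 1.85 and 4.59 CPM after resection and none in sham. Ryr1a had 3.64, 0.952 and 0.823 CPM after resection and at most 0.0164 CPM in sham. Pvalb8, myhz2 and ryr1a passed the filter on low counts only through the resection libraries, so their calls are a description. The part of the fewer genes detected in the sham libraries, given above, was not tested for them either. Pvalb8 was lowest in replicate 2, the resection library with the most mylpfa, and myhz2 was highest in replicate 4. All 4 higher genes, pygma among them, lost their call when all 21 libraries were fitted together (adjusted p between 0.0735 and 0.134) and without a filter on low counts (0.0790 to 0.110). The count of 10 was 0 or 1 when any 1 library was left out, while all genes called fell to between 0 and 177, against 2154. DESeq2 called 14 of the muscle genes, 9 of them shared with edgeR.

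Most of the lower genes were abundant in all libraries. Ckma had 3452, 2935 and 3320 CPM in the resection libraries against 5757, 8421 and 7003 CPM in sham, and fell by 2.26 on the log2 scale after TMM scaling (SE 0.39, adjusted p = 0.0316). GAPDH had 12125, 14052 and 12928 CPM after resection against 32797, 46510 and 83600 CPM in sham and fell by 3.36 (SE 0.64, adjusted p = 0.0316), and AK1, an adenylate kinase, fell by 3.19 (SE 0.65, adjusted p = 0.0316). The median log2 difference of the energy enzymes was -1.22 (14 tested) and that of the cardiomyocyte list -1.35 (18 tested, 6 called as lower and 0 to 4 when any 1 library was left out), beside 0.26 over all genes. These enzymes are used by heart muscle as well, and the part of heart muscle RNA in their values was not tested.

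The size of these differences depended on the scaling. The TMM factors of the resection libraries were 1.85, 1.82 and 1.81 and those of the sham libraries 0.876, 0.994 and 0.446, in a joint scaling of all 21 libraries. Scaled by library totals alone, an alternative chosen after seeing the data, ckma fell by 1.12, GAPDH by 2.05 and AK1 by 1.86 (adjusted p = 0.0278 each in edgeR), and the median over all genes was 1.25, against 0.26 with TMM and 0.14 with DESeq2 size factors. All genes called then split into 2132 higher and 44 lower, against 1780 and 374 with TMM, and the muscle genes into 4 higher and 3 lower, against 4 and 6. The 10 called muscle genes had the same direction under all 3 scalings. By library totals the calls of ACTA1 (ENSDARG00000055618), CASQ1 (ENSDARG00000018105) and ALDOA (ENSDARG00000011665) ended (adjusted p = 0.0725, 0.136 and 0.267 in edgeR). With DESeq2 size factors in edgeR the calls of pygma and the same ALDOA ended (adjusted p = 0.0542 and 0.0589), which left 3 higher and 5 lower. By library totals 2 of the cardiomyocyte list were called as lower, against 6 with TMM.

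For cryoinjury at 1 dpi the comparison is the one behind the choice of the 3 genes, and its counts are a description. Of 46 listed muscle genes 5 were called, all higher, where 0.146% of all genes were called (0.138% higher, 0.00768% lower, 13020 tested): atp2a1l, tnnt3b, myl1, tnnc2 and actc1b. Atp2a1l, a fast sarcoplasmic calcium pump, had 260 and 7.45 CPM in the cryoinjury libraries and no count in sham, and myl1, the essential light chain of fast myosin, had 327 and 0.967 CPM and no count in sham. Tnnc2, the calcium-binding subunit of fast troponin, had 227 and 1.87 CPM after cryoinjury and none in sham, whereas tnnt3b and actc1b were also counted in sham, at up to 0.916 and 22.9 CPM. The median log2 difference was 7.99 in the thin filament list (10 tested) and 7.70 in the thick filament and Z-disc list (13 tested). It was 2.14 in the calcium handling list (11 tested) and -0.94 in the energy enzymes (12 tested), beside -0.15 over all genes. Atp2a1l, myl1 and tnnc2 passed the filter on low counts only through the cryoinjury libraries, and their fitted differences rest on counts of 0 in sham. Without cryoinjury replicate 2 the log2 difference of actc1b was 1.62, against 7.80, and that of tnnt3b was 3.67, against 10.64. The medians are therefore a description that leans on that library. The count of 5 was 0 without cryoinjury replicate 2, 19 without cryoinjury replicate 3 and 1 without sham replicate 3, and DESeq2 called 27.

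At later days edgeR called no listed muscle gene. For cryoinjury at 5 dpi 0% of 14286 genes and none of 41 muscle genes were called, with 517 and 13 at an unadjusted p under 0.05, and DESeq2 called 282 genes, 13 of them in the muscle lists. The count of muscle genes was 0 without cryoinjury replicate 1, 17 without cryoinjury replicate 4, 18 without sham replicate 2 and 18 without sham replicate 3. For cryoinjury at 14 dpi 0% of 15020 genes and none of 38 muscle genes were called, with 859 and 3 at an unadjusted p under 0.05, and DESeq2 called 184 genes, none of them in the muscle lists. For resection at 5 dpi none of 39 was called by edgeR, 1 was under 0.05 unadjusted, and DESeq2 called none.

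The summed levels of slow skeletal, myogenic and cardiomyocyte markers in the 2 high cryoinjury libraries lay inside the range of the other libraries. Single genes of these lists did not all do so. The most abundant genes of the slow list were TNNC1 (median 420 CPM over the libraries) and tpm3 (71.8 CPM). Those of the myogenic list were MEF2D (104 CPM) and KLHL31 (47.9 CPM). These genes were counted in every library, so the sums do not tell whether slow muscle or myogenic cells were present. Slow skeletal muscle genes summed to 498 CPM in cryoinjury 1 dpi replicate 2 and 434 CPM in cryoinjury 5 dpi replicate 1, inside the range of 145 to 2727 CPM over all libraries. The highest sum was that of resection 1 dpi replicate 2. All 9 genes of the list were above the floor of 3 counts in cryoinjury 1 dpi replicate 2 and resection 1 dpi replicate 2. Every other library had 4 to 8 of them above it, with 4 in cryoinjury 5 dpi replicate 1. Smyhc1, a slow myosin heavy chain, was at or under 0.816 CPM throughout, while smyhc2, tnni1d and tnni1c reached 6.33, 20.9 and 29.2 CPM in some library. Of the slow list, the myosin light chain gene myl10, chosen after its values were seen, was highest in cryoinjury 5 dpi replicate 1 (18.1 CPM), with 4.04 CPM in cryoinjury 1 dpi replicate 2 and 5.04 CPM in sham 1 dpi replicate 3, and was at 0 in 6 libraries. Its Pearson r with the mean of the 3 genes was 0.77 (rank 41 of 17044), and 0.30 without the 2 highest libraries. The list of myogenic regulators and satellite cells summed to 175 and 242 CPM in those libraries (50.8 to 302 CPM over all), but myog, a differentiation factor of muscle, had 19.3 CPM in cryoinjury 1 dpi replicate 2, 0 CPM in cryoinjury 5 dpi replicate 1, and 0 in 14 libraries, while MYOD1, which commits cells to muscle, stayed at or under 5.71 CPM. The cardiomyocyte sums were 58966 and 100825 CPM. The macrophage list summed to 758 and 476 CPM in the 2 high libraries. The other cryoinjury replicates of the same days had 590 and 1683 CPM. Of the 25 listed macrophage genes, 20 and 15 were above the floor of 3 counts in the high libraries, against 19 in each other replicate. The macrophage growth factor receptor gene csf1ra, chosen after its values were seen, was at 0.0355 and 0 CPM, against 2.41 and 22.9 CPM. At 1 dpi the list as a whole went the other way from csf1ra, with 758 against 590 CPM and 20 against 19 genes above the floor.

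Epidermal genes differed between injury and sham at 1 dpi in part. By highest level in any library the keratins krt5 (3825 CPM) and krt91 (3190 CPM) led the list. By median over the libraries krt8 (869 CPM) and krt4 (318 CPM) led it, and krt5 was at 1.32 CPM. Krt8 and krt4 were counted in every library, so the sums alone do not tell whether epidermal cells were present. The list summed to 6949 and 3052 CPM in the cryoinjury libraries at 1 dpi. It summed to 7297, 10305 and 12143 CPM in the resection libraries, against 2095, 4219 and 933 CPM in the sham libraries. Cryoinjury replicate 3 lay below sham replicate 2, while the resection libraries all lay above sham. In edgeR 13 of 17 were called as higher after resection, beside 11.3% of all genes, and 5 of 14 after cryoinjury, beside 0.138%. Leaving out 1 library gave 0 to 10 after resection and 2 to 5 after cryoinjury. At 5 dpi cryoinjury replicate 1, with its high mylpfa, had 1420 CPM, against 884 and 1524 CPM in sham. Neutrophil genes were highest in cryoinjury 1 dpi replicate 2 (124 CPM; 0.515 to 124 CPM over all libraries). The part of these other cell types in the levels of mylpfa, pvalb1 and pvalb7 was not tested.

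**Figure D4:**
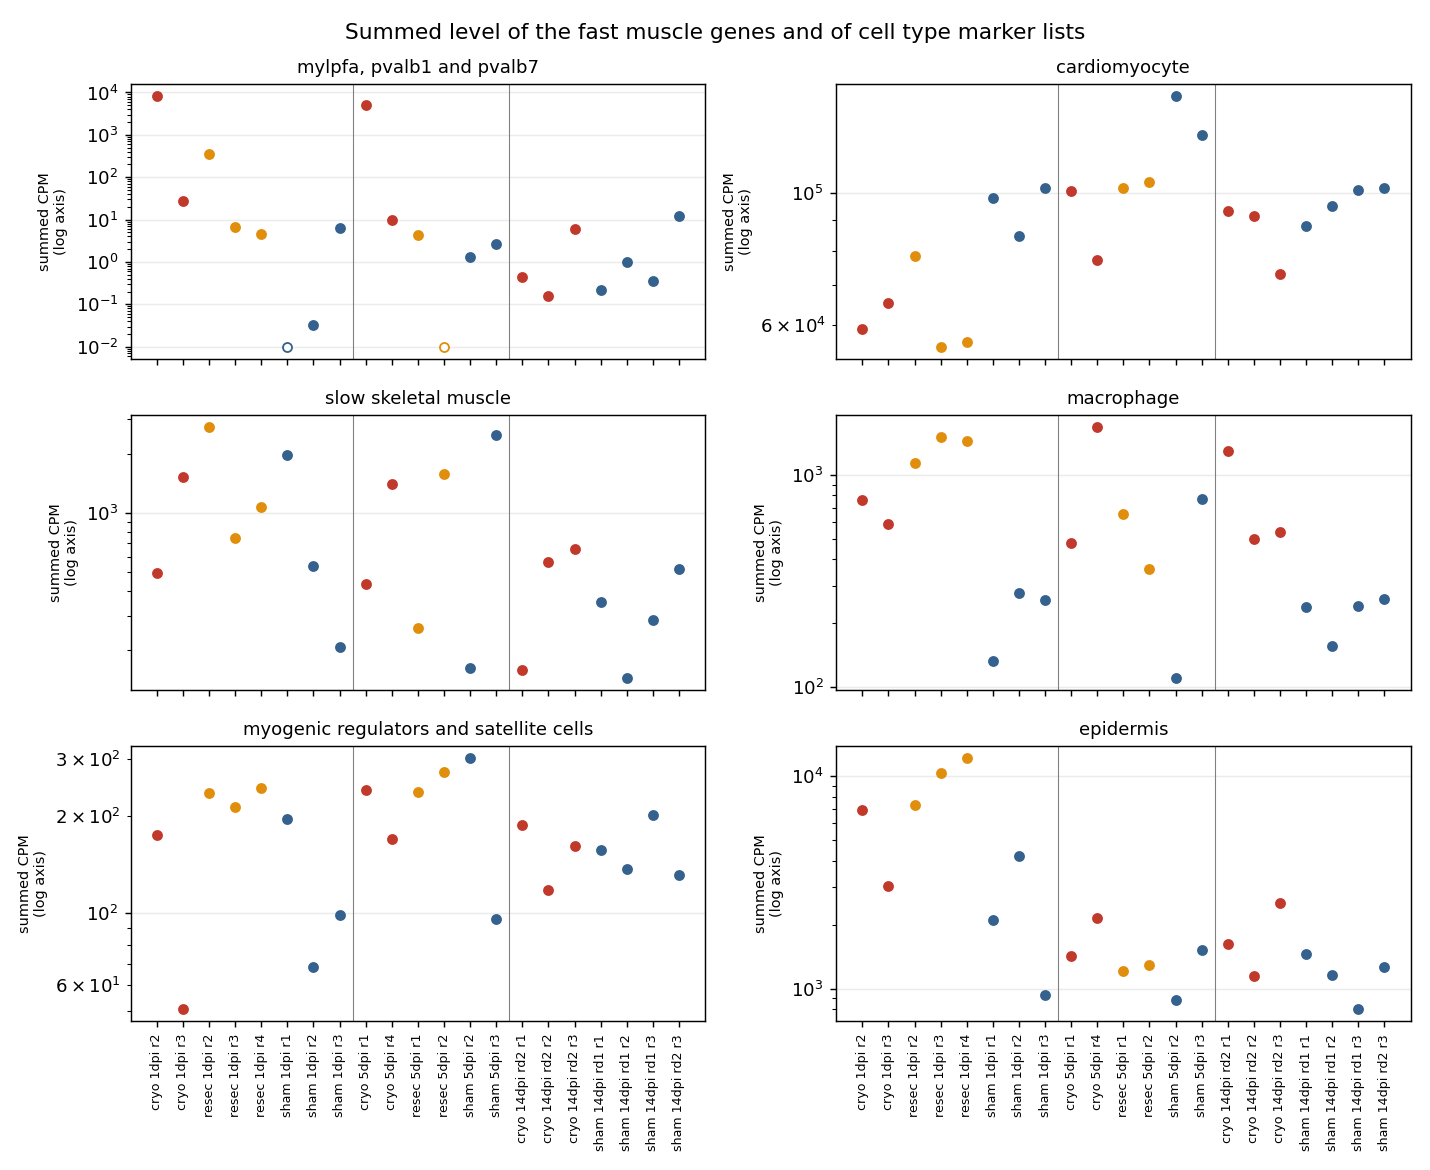
Summed CPM of the 3 genes and of 5 marker lists (cardiomyocyte, slow skeletal muscle, macrophage, myogenic regulators, epidermis) in each of the 21 libraries, on log axes with ranges of their own (red, cryoinjury; orange, resection; blue, sham; open circles, 0 counts). The sum of the 3 genes peaks at 8178 CPM in cryoinjury 1 dpi replicate 2 and 4971 CPM in cryoinjury 5 dpi replicate 1, where the slow muscle sums (498 and 434 CPM) and the cardiomyocyte sums (58966 and 100825 CPM) lie within the range of the other libraries. The slow muscle and myogenic sums are led by genes counted in every library.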

How the data were processed

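The deposited table holds raw counts per gene, which the authors made from low-input amplified nuclear cDNA libraries; the submitters' processing notes name STAR 2.4.2a, featureCounts, DESeq2 and the build danRer10. The labels name a reverse strand, but how strand entered the counting is not given in the sources used here. One gene with missing values was left out, leaving 31952, and 2 columns matching no sample were not used. Total counts ran from 10577395 to 61141100. Levels are CPM of total counts with 95% Wilson intervals, which cover counting error only. The floor is 3 counts per library and likewise covers counting error only. Names came from reference tables or the study's list (26305 identifiers named).

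Each injury was compared with sham of the same day in edgeR 4.0.16 (R 4.3.3; TMM, filterByExpr, quasi-likelihood test, Benjamini-Hochberg adjusted p under 0.05). Alternatives were DESeq2 1.42.0, its size factors in edgeR, no filter, all libraries in 1 fit, a replicate block, round as a covariate and leaving out each library; scaling by library totals was added after the data were seen. The fits were tested on simulated data: of 100 genes changed 32-fold the resection comparison at 1 dpi recovered 46, cryoinjury 16, and at 5 dpi 30 and 22. Of 100 genes changed 4-fold they recovered 2, 1, 0 and 0.

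The 3 genes and all lists were chosen with earlier results of these data known, and the 3 genes were tested only against sham libraries that had no part in that choice. Named are the 3 genes, in each muscle list the 3 most abundant and up to 6 called genes per comparison, every other parvalbumin that matched an identifier, the 10 named genes of most similar pattern, and the 2 most abundant genes of marker lists. Other genes are said to have been chosen after their values were seen; of defining markers, MPEG1, csf1ra, smyhc1, myog and MYOD1 were chosen likewise. In the muscle lists 62 of 72 symbols matched a gene, 29 identifiers by a family symbol. Libraries whose labels say merged (3) were used as deposited.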

Additional observations from a re-analysis of the deposited data

Results flagged for a closer look

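Among the 4 sham libraries of 14 dpi, the second-round replicate 3 stood away from the other 3, with 5.02 CPM of mylpfa and 6.90 CPM of pvalb1. The nearest of the other libraries had 0.852 and 0.128 CPM. The 3 cryoinjury libraries of the same round had 0.314, 0.0311 and 3.23 CPM of mylpfa and 0.105, 0.124 and 2.86 CPM of pvalb1. For pvalb7, first-round sham replicate 1 stood away with 0.108 CPM (5 counts), the other 3 sham libraries having none. Of 7 such results examined 3 passed Dixon's critical value, which chance passes in about 1 group in 20 for normally distributed values. That rate need not hold for counts this low. For pvalb7 any count beside 3 libraries with none passes, and the results of mylpfa and pvalb1 came from the same library. No conclusion is therefore drawn from the number that passed. The cause was not tested.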

How the results depend on the processing

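For listed muscle genes called between resection and sham at 1 dpi (10), no filter gave 5 and leaving out 1 library 0 to 1. For cryoinjury at 1 dpi (5), DESeq2 gave 27, no filter 20, all 21 libraries in 1 fit 8, and leaving out 1 library 0 to 19. For cryoinjury at 5 dpi (0), DESeq2 gave 13, no filter 18, and leaving out 1 library 0 to 18; at 14 dpi (0) no filter gave 2. All genes called at 1 dpi after resection numbered 2154, against 4264 with DESeq2, 225 without a filter, 593 in the joint fit and 0 to 177 without 1 library. After cryoinjury at 1 dpi they numbered 19, against 951, 91, 125 and 9 to 103 in the same order. From 0 at later days, DESeq2 and no filter gave 153 and 46 (resection 5 dpi), 282 and 64 (cryoinjury 5 dpi) and 184 and 172 (cryoinjury 14 dpi), the joint fit gave 2 in the last, and leaving out 1 library gave up to 1599, 261 and 2. The difference of pvalb1 between days was 14.90 without a filter as well, and 10.13 to 20.17 without 1 library. Library totals in place of TMM, chosen after seeing the data, gave 7 muscle genes after resection and 6 after cryoinjury at 1 dpi, and 0 at later days (2176, 25 and 0 over all genes). Of the 10 genes of most similar pattern, 3 remained by Spearman correlation and 4 without the 2 highest libraries. The cause of these shifts was not tested.

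No sign of pairing by replicate number was seen: deviations of same-numbered libraries correlated between -0.02 and 0.03 at 1 and 14 dpi. With groups of 2 to 4 libraries, this check cannot exclude that same-numbered hearts were handled together. With the replicate block the muscle genes called were 0 after resection at 1 dpi, 7 after cryoinjury at 1 dpi and 0 at 14 dpi (53, 47 and 0 over all genes), and pvalb1 after resection had a log2 difference of 12.96. No paired analysis was possible at 5 dpi because resection and sham shared fewer than 2 numbers and cryoinjury and sham none. Genes under a few counts per library, pvalb7 in most libraries outside cryoinjury among them, had uncertain levels. Pvalb7 had 0 counts in sham 1 dpi replicate 2, the library with the most counts (61141100). It had 187 counts in cryoinjury 5 dpi replicate 4 (18949102 counts in all). The part of depth in these levels was not tested.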
